A study of Mus musculus with 2 samples.

Results

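The nuclear genes of the mitochondrial respiratory chain were examined by complex in blood-forming cells of mice with altered IκB control and of wild-type (WT) mice. Members were chosen by symbol: genes starting with Ndufa, Ndufb, Ndufc, Ndufs, Ndufv, Uqcr, Cox4i, Cox5, Cox6, Cox7, Cox8 or Atp5, together with Sdha, Sdhb, Sdhc, Sdhd and Cyc1. Of the 32285 genes in the deposited count tables, 94 met this rule, and 1 pseudogene, Ndufb1-ps, was left out. The symbols placed 38 genes in complex I, 4 in complex II, 9 in complex III, 18 in complex IV and 17 in complex V, the ATP synthase. The Ndufa prefix also took in 8 complex I assembly factors, Ndufaf1 to Ndufaf8, which are kept apart below. Placement followed the symbol: Ndufa4 was counted in complex I although its protein is now assigned to complex IV, and Ndufab1, an acyl carrier protein, was counted there too.

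The cells were LSK cells, sorted from femur and tibia marrow as lacking lineage markers, bearing Sca-1 and high in Kit, a fraction that contains haematopoietic stem cells and multipotent progenitors. They came from young WT mice and from young mice labelled IκB-negative, called IkBKO in the deposited cell table. The 2 droplet libraries, numbered as replicates, each held both genotypes, told apart by hashing antibodies, so there were 4 pools of cells. The labels used here name neither the altered IκB genes nor how many mice were pooled. The p-values therefore measure no more than the spread among these 4 pools. The 18029 cells that passed the deposited quality call were used.

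Complexes I, III and IV pump protons out of the mitochondrial matrix as electrons pass from NADH to oxygen, complex II feeds in electrons from succinate, and complex V uses the returning protons to make ATP. Most subunits are encoded in the nucleus and imported, whereas 13 are encoded by mitochondrial DNA, so the complexes are built from products of both genomes. Quiescent haematopoietic stem cells are known for relying little on this pathway, and its use is known to rise as cells divide and differentiate.

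Pools held 42165571 to 62834572 UMIs, each UMI standing for 1 captured RNA molecule, and levels are given as CPM, the UMIs of a gene per 1000000 UMIs of its pool. Counting was from 3′ ends, so a CPM level carries no length term. The median cell held 9963 UMIs in WT and 13709 in IkBKO cells of library 1, and 6983 and 9641 in library 2. Nfkbie, which encodes IκBε, was at 9.11 and 12.1 CPM in the WT pools and 2.04 and 1.98 CPM in the IkBKO pools of libraries 1 and 2. Nfkbib, which encodes IκBβ, was at 19.2 and 16.1 CPM against 6.64 and 7.93 CPM. Both were below WT in both libraries, although a 3′ tag outside a deleted stretch would check nothing. Nfkbia, which encodes IκBα, was at 47.7 and 76 CPM in the WT pools and 42.6 and 59.7 CPM in the IkBKO pools, with overlapping genotypes. Gates were set on single genes: at least 1 UMI of Mecom (5319 cells), a regulator of stem cells, 3 of Dntt (2501 cells), the terminal transferase of early lymphoid cells, 20 of Mpo (2362 cells), the myeloperoxidase of myeloid cells, and 3 of Pf4 (1159 cells), a platelet factor. No gate took in 7857 cells, and 9026 lay in exactly 1. The libraries shared 39 cell barcodes.

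The first comparison asked whether respiratory chain transcripts differed by genotype over the whole LSK fraction. They were higher in IkBKO cells, in every complex and by small amounts. Summed over the 86 subunit genes, the level went from 24470 to 29858 CPM in library 1 and from 21767 to 24872 CPM in library 2, ratios of 1.22 and 1.14. The 13 mitochondrially encoded subunits, summed in the same way, were at 31990 and 32460 CPM in the WT pools, and at 29618 and 28934 CPM in the IkBKO pools. The ratio of nuclear to mitochondrially encoded subunit RNA was therefore 0.765 and 0.671 in WT and 1.01 and 0.86 in IkBKO cells. The IkBKO pools lay above the WT pool of their library in this ratio, and above both WT pools.

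The test was edgeR's quasi-likelihood F test with the library as a block and Benjamini-Hochberg adjustment over all genes, and an adjusted p of at most 0.05 was called. Each fold change is the log2 of IkBKO over WT, given with its standard error (SE), after TMM scaling, which sets pools to a common level over most genes. The filter on low counts passed 90 members. The others, Ndufa4l2, Cox7b2, Cox8b and Cox8c, had 0 to 3 UMIs in every pool. Of the 90, 43 were higher in IkBKO cells and 0 lower, against 7.13% of all tested genes higher and 6.19% lower. At an unadjusted p under 0.05, 72 were higher and 0 lower (17.2% and 15.8% of all genes), and DESeq2 called 57 higher and 0 lower. The median log2 fold change was 0.34 over the members and -0.01 over all genes. Within both libraries 82 of 90 members were above WT in CPM (27.2% of all genes), and for 48 both IkBKO pools were above both WT pools (15.6%). Scaling by total UMIs in place of TMM gave 50 members higher, and moved the share of higher calls among all calls from 53.5% to 36.6%.

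By complex, 11 of 37 tested genes of complex I were higher, 3 of 4 of complex II, 5 of 9 of complex III, 12 of 15 of complex IV and 12 of 17 of complex V. The median log2 fold changes were 0.33, 0.36, 0.44, 0.41 and 0.36. None of the 8 assembly factors passed, with a median of 0.16. The plot of summed levels shows the 5 complexes above WT within both libraries, and the assembly factors above WT in library 1 (315 to 362 CPM) and not in library 2 (309 to 304 CPM).

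**Figure D1:**
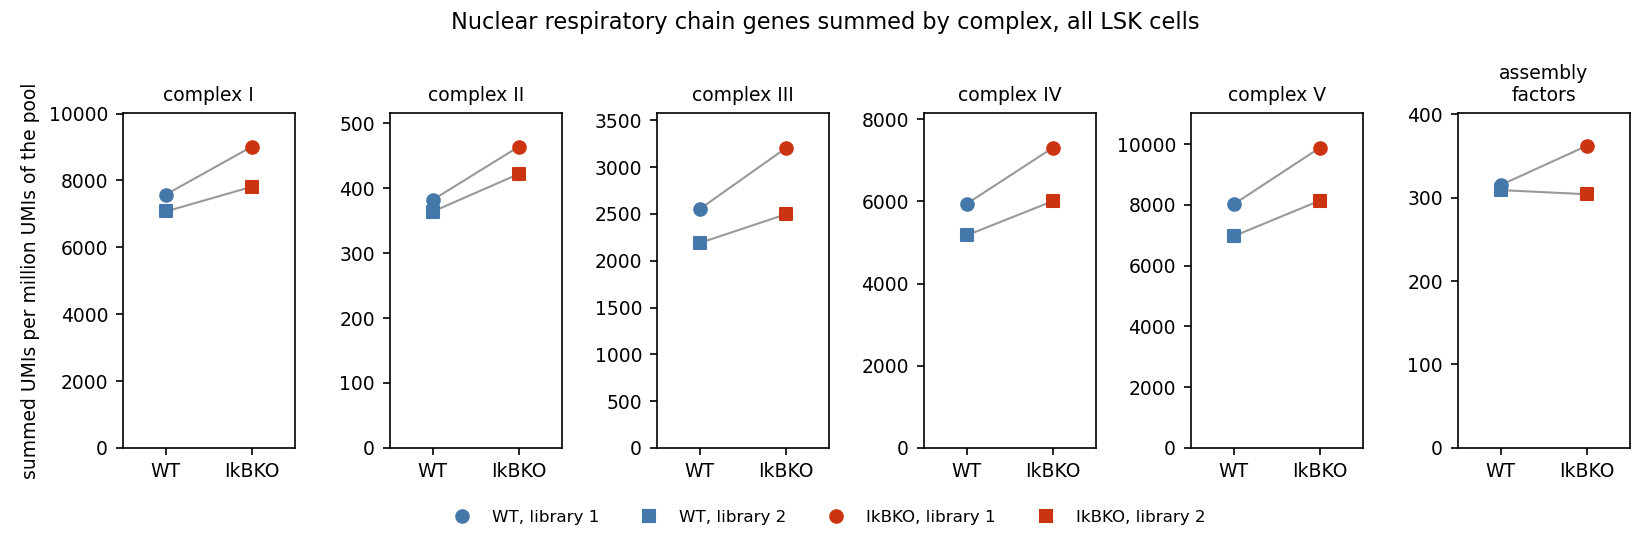
Summed CPM (vertical axis, from 0) of the genes of each complex and of the 8 assembly factors in the 4 pools over all LSK cells. Lines join the WT and IkBKO pools of 1 library. For complex V the WT pools lie at 8020 and 6970 CPM, and the IkBKO pools at 9878 and 8140 CPM.

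The number of calls depended on the comparison within libraries. Without the library block 0 members passed, and 0 passed in fits that left out any 1 of the 4 pools, which could not carry the block. In those fits the median over the members ranged from 0.12 without the IkBKO pool of library 1 to 0.57 without that of library 2. The self-test on simulated counts called 28% of genes changed 1.3-fold and 44% of those changed 1.5-fold in this comparison, so a member that did not pass is not shown to be unchanged.

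The mix of cells differed between genotypes. Cells of the Mpo gate alone, the gate with the highest respiratory chain levels, made up 7.93% and 0.604% of the WT pools and 34.1% and 7.15% of the IkBKO pools. Cells of the Dntt gate alone made up 16.8% and 15.7% against 5.78% and 8.14%. Cells with more than 5 UMIs of G2/M cell cycle genes per 10000 UMIs were 28.4% and 23.9% of WT and 45.1% and 39.4% of IkBKO cells. The 8 markers of mature neutrophils summed to 1389 and 1190 CPM in the WT pools and to 189 and 209 CPM in the IkBKO pools, and none of them was at 0. In pools re-weighted to one mix of gate classes, an alternative added after the data were seen, the median was 0.14 and 7 members were called: Cox4i2, Cox6a2, Cox6b2, Sdhb, Ndufa11, Atp5g3 and Atp5g2. Re-weighting by gate class and G2/M cells gave calls for Cox4i2, Cox6a2 and Cox6b2, with a median of 0.13. Both re-weightings lean on few cells in the WT pool of library 2. There the 30 cells of the Mpo gate alone were weighted from 0.604% to 12.43% of the pool. In the second mix, the 3 of them at or under the G2/M limit went from 0.06045% to 3.885%. The Mpo gate of that pool held 9042 CPM of the mature neutrophil markers. Without the G2/M cells 42 members were called, and without cells carrying markers of other lineages 47.

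In complex I, the entry point for electrons from NADH, the largest changes were in accessory subunits of the membrane arm. Ndufb8 (chr19:44548572-44555440, GRCm38) was at 245 and 237 CPM in the WT pools, and at 345 and 304 CPM in the IkBKO pools (log2 0.52 ± 0.09 SE, edgeR adjusted p = 0.0241), and the genotypes did not overlap. Ndufa1 rose from 187 to 246 CPM in library 1 and from 119 to 156 CPM in library 2 (0.48 ± 0.08, adjusted p = 0.0215). Here the libraries differed by more than the genotypes, so the rise shows only within each library. Ndufa11 rose from 141 and 137 to 192 and 170 CPM (0.47 ± 0.09, adjusted p = 0.0299), with no overlap. Among subunits of the catalytic core, Ndufv1 (0.45), which binds the flavin, and Ndufs8 (0.36), which carries iron-sulfur clusters, passed. Ndufs1 (0.19) and Ndufv2 (0.39), which also carry iron-sulfur clusters, did not. The lowest values were those of Ndufa7 (0.17, adjusted p = 0.232), Ndufa6 (0.18, adjusted p = 0.22) and Ndufa4. Ndufa4 was at 929 and 946 CPM in the WT pools, and at 909 and 909 CPM in the IkBKO pools (0.05 ± 0.06, adjusted p = 0.642). Its fitted value was -0.04 when pools were scaled by total UMIs.

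Complex II is succinate dehydrogenase, which also works in the tricarboxylic acid cycle and has no mitochondrially encoded subunit. Its membrane anchor Sdhd (chr9:50596357-50603812) rose from 103 and 86.6 to 135 and 109 CPM (0.46 ± 0.08, adjusted p = 0.0244). Its iron-sulfur subunit Sdhb rose from 109 and 119 to 142 and 140 CPM (0.40 ± 0.09, adjusted p = 0.0439), and the other anchor, Sdhc, from 64.7 and 60.2 to 77.2 and 69.2 CPM (0.32 ± 0.08, adjusted p = 0.0495). For all 3 the IkBKO pools were above both WT pools. The flavoprotein subunit Sdha stood at 106 and 97.3 CPM in the WT pools, and at 110 and 103 CPM in the IkBKO pools and did not pass (0.16 ± 0.08, adjusted p = 0.197), and its genotypes overlapped.

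Complex III passes electrons from ubiquinol to cytochrome c. Uqcrq (chr11:53427922-53430831), a small subunit, rose from 316 and 222 to 484 and 290 CPM (0.59 ± 0.10, adjusted p = 0.0219), and Cyc1, the cytochrome c1 subunit, from 113 and 99.9 to 159 and 128 CPM (0.52 ± 0.09, adjusted p = 0.022). Uqcrc1, a core protein, rose from 122 and 92.1 to 167 and 114 CPM (0.47 ± 0.09, adjusted p = 0.0287). Cyc1 was the only one of these 3 whose genotypes did not overlap. Uqcr10 and Uqcr11 also passed (0.46 and 0.44). The Rieske iron-sulfur protein Uqcrfs1 (0.37), Uqcrb (0.32) and Uqcrc2 (0.28) did not. Uqcrh, the hinge protein, was at 599 and 687 CPM in the WT pools, and at 581 and 681 CPM in the IkBKO pools (0.06 ± 0.07, adjusted p = 0.56), within the spread between libraries.

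In complex IV, cytochrome c oxidase, 12 subunits rose, and the largest changes were in alternative isoforms. Cox4i2 (chr2:152754173-152765037), the isoform of subunit 4 known from lung and low oxygen, was low, at 4.28 and 2.23 CPM in the WT pools, and at 10.9 and 5.71 CPM in the IkBKO pools (1.44 ± 0.14, adjusted p = 0.00505). The IkBKO pools were above both WT pools. The common isoform Cox4i1 rose from 756 and 747 to 885 and 841 CPM (0.29 ± 0.07, adjusted p = 0.0449). Cox6b2 (chr7:4751792-4753094), the isoform of subunit 6b known from testis, rose from 65.8 and 49.2 to 79.5 and 88.8 CPM (0.65 ± 0.13, adjusted p = 0.0396), whereas the common Cox6b1 rose by 0.42 ± 0.08. Cox6a1, the common isoform of subunit 6a, rose from 174 and 144 to 235 and 188 CPM (0.50 ± 0.09, adjusted p = 0.021), and Cox7a2, the common isoform of subunit 7a, rose by 0.44 ± 0.11.

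The 3 complex IV genes that did not pass were also isoforms or relatives. Cox6a2 (chr7:128205435-128206387), the heart and skeletal muscle isoform of subunit 6a, was at 24.8 and 23.7 CPM in the WT pools, and at 17.7 and 28.4 CPM in the IkBKO pools (-0.02 ± 0.18, adjusted p = 0.955). Cox7a1, the muscle isoform of subunit 7a, was at 1.28 to 2.47 CPM in the 4 pools (0.40 ± 0.23, adjusted p = 0.285). Cox7a2l (chr17:83501918-83517330), which is related to subunit 7a but helps complexes III and IV associate, was at 323 and 401 CPM in the WT pools, and at 285 and 338 CPM in the IkBKO pools (-0.12 ± 0.09, adjusted p = 0.363). Of the other isoforms, Cox8a rose by 0.29 ± 0.07 (adjusted p = 0.0433), and Cox8b and Cox8c were at or near 0.

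In complex V the 3 genes for subunit c, which forms the rotating ring and is the same mature protein from each gene, all rose. Atp5g1 (chr11:96068852-96075670) went from 481 and 431 to 671 and 565 CPM (0.53 ± 0.08, adjusted p = 0.0157), Atp5g3 from 273 and 266 to 364 and 326 CPM (0.45 ± 0.09, adjusted p = 0.0331) and Atp5g2 from 769 and 876 to 875 and 1021 CPM (0.29 ± 0.06, adjusted p = 0.0342). The genotypes did not overlap for Atp5g1 and Atp5g3, and overlapped for Atp5g2. Atp5o, a subunit of the stalk, rose by 0.44 ± 0.09 (adjusted p = 0.0346). The catalytic subunit Atp5b (0.40) and its partner Atp5a1 (0.36) rose too, whereas Atp5c1 (0.33), Atp5f1 (0.32), Atp5j (0.28), Atp5md (0.28) and Atp5d (0.26) did not pass. Atp5k, adjusted p = 0.0498, lay just inside the threshold, and its libraries differed by more than its genotypes (460 and 248 CPM in WT, 619 and 285 CPM in IkBKO pools). Without the IkBKO pool of library 1, in a fit with no block, its value was -0.34.

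The assembly factors, which build complex I without staying in it, ranged from 0.02 for Ndufaf4 to 0.31 ± 0.11 for Ndufaf6 (adjusted p = 0.117), followed by Ndufaf8 at 0.27 and Ndufaf3 at 0.23. Ndufaf5 and Ndufaf7 were at 0.12 each. The plot of single members shows this group nearest to 0.

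**Figure D2:**
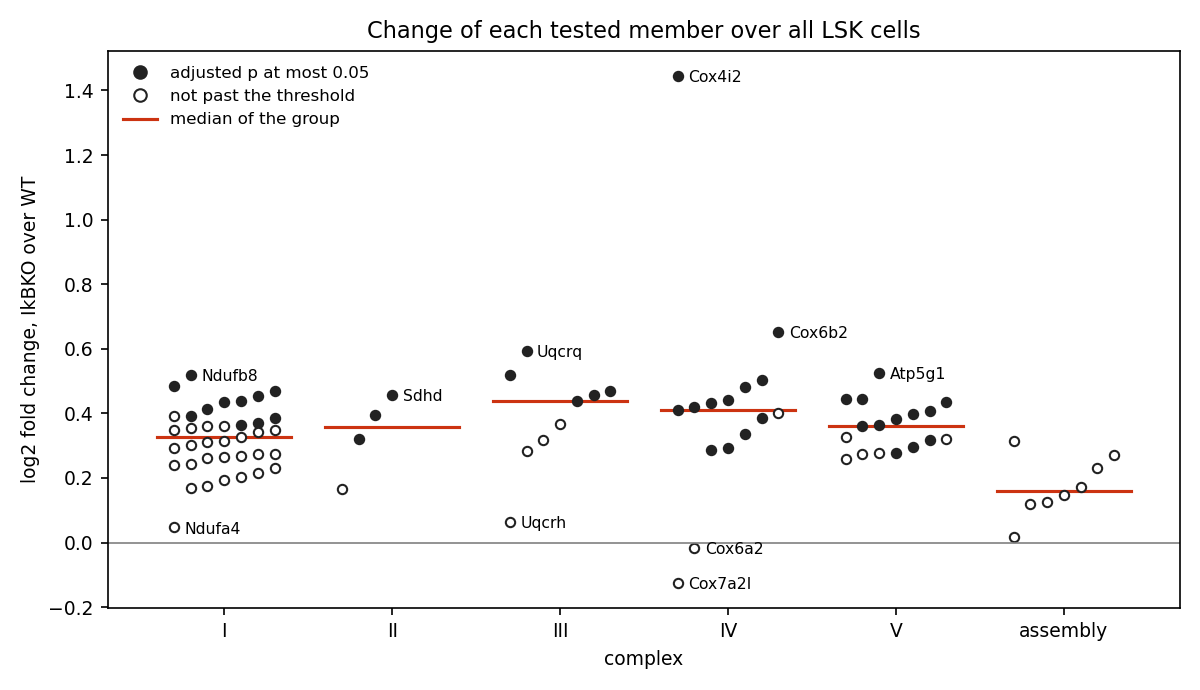
Log2 fold change of IkBKO over WT (vertical axis) for each of the 90 tested members over all LSK cells, by complex. Filled points passed an edgeR adjusted p of 0.05, open points did not, and red lines are group medians. Cox4i2 stands highest at 1.44, and Cox7a2l lowest at -0.12.

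Other genes of the pathway were read from lists chosen with earlier results known. Each count over all LSK cells stands beside 7.13% of all tested genes higher and 6.19% lower. Of the 13 mitochondrially encoded subunits, 0 were higher and 0 lower, with mt-Nd1 at 0.25 ± 0.07 (adjusted p = 0.0692) and mt-Co1 at -0.14 ± 0.04 (adjusted p = 0.0795). Of 46 tested assembly factors of the chain outside the Ndufaf genes, 1 was higher (Cmc2, 0.41) and 1 lower (Ttc19, which acts in complex III, -0.34). Among 17 electron carriers and entry points 5 were higher, among them Etfb, a subunit of the electron transfer flavoprotein (0.62 ± 0.09), Pdss1 of ubiquinone synthesis (0.56 ± 0.10) and Cycs, cytochrome c (0.43 ± 0.09). Of 7 tested carriers 3 were higher: the ADP/ATP carrier Slc25a5 (0.49), the phosphate carrier Slc25a3 (0.32) and the outer membrane channel Vdac2 (0.43). Within the gates, 3 of the 13 mitochondrially encoded subunits were lower in IkBKO Mecom cells (4.37% of all genes lower). In Pf4 cells 1, mt-Co1, was lower (0.73%), in Dntt cells 1 was higher (6.81% of all genes higher), and in Mpo cells 0 were called.

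Of 22 genes of the tricarboxylic acid cycle and pyruvate dehydrogenase, 3 were higher, including Fh1, fumarate hydratase (0.52), and Cs, citrate synthase (0.38), and Pdk1, a kinase that inhibits pyruvate dehydrogenase, was lower (-0.40). Mitochondrial ribosomal proteins gave 15 of 78 higher, import factors 4 of 23 and antioxidant genes 5 of 18, with 0 lower in each. In glycolysis 2 of 20 were higher (Gapdh at 0.44 and Ldha at 0.45) and 2 lower, among them Ldhb (-0.40). Of 19 regulators of mitochondrial biogenesis the 1 called gene was lower: Ppargc1a, a coactivator, at 1.6 and 3.7 CPM in the WT pools, and at 0.271 and 1.63 CPM in the IkBKO pools (-1.66 ± 0.37). Of the 16 G2/M genes 13 were higher. Over all tested genes 7.13% were higher and 6.19% lower. The higher calls were 10% of the tested glycolysis genes and 13.6% of the tested genes of the tricarboxylic acid cycle list. These 2 counts, and the 1 call among the regulators, are not read as a change of their pathway.

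Because many members rose together, their promoters were searched for motifs of factors known to act on such genes. RefSeq promoters (GRCm38.p6) were matched for 75 of the 94 members, and the 250 bases before the start were read on both strands. The NRF1 motif, whose fixed letters and 1 free base are in capitals in the stretches shown next, was present in 12 of 68 subunit promoters (17.6%), against 3.86% of 27025 promoters of all genes. The ETS motif CCGGAAGT was in 3 of 68 (4.41%, against 2.93%), and the YY1 motif in 0 of 68 (against 0.218%). For so rare a motif, and in a window that ends at the start, a count of 0 does not show that it is lacking. No 2 of these motifs overlapped in a member's window. The 12 promoters held 17 NRF1 matches, and 3 held more than 1. The following stretches show matches in up to 2 subunits of each complex, to let the shared core be compared. They run 5′ to 3′ on the strand of the gene, with the NRF1 motif, read on either strand, in capitals.
Ndufa11, complex I, chr17:56717692-56717721, plus strand: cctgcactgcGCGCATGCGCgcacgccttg
Ndufs6, complex I, chr13:73328483-73328508, minus strand: cgactgctgtGCGCCTGCGCcggcac
Sdhd, complex II, chr9:50603909-50603938, minus strand: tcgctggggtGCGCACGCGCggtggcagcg
Sdha, complex II, chr13:74350319-74350348, minus strand: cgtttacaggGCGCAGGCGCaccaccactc
Sdha, complex II, chr13:74350276-74350305, minus strand: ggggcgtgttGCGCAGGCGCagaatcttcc
Sdha, complex II, chr13:74350241-74350260, minus strand: gcgactcggtGCGCAAGCGC
Cox6a1, complex IV, chr5:115349101-115349130, minus strand: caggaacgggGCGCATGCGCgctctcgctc
Cox6a1, complex IV, chr5:115349056-115349085, minus strand: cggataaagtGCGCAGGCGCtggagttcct
Atp5k, complex V, chr5:108434430-108434459, minus strand: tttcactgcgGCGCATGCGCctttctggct
Atp5h, complex V, chr11:115420041-115420070, minus strand: gaccccgacgGCGCAGGCGCcgcgcccgcc
Promoters of complex III held no match in this window. The median change over all LSK cells was 0.34 for the 12 subunits with an NRF1 match and 0.36 for the 54 without one.

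Gates were compared next, to set respiratory chain levels of cells at different points of the hierarchy side by side. In cells of exactly 1 gate, levels were lowest in Mecom cells and highest in Mpo cells. In these cells the summed subunit level of Mecom cells was 21993 and 20977 CPM in the WT pools, and 23607 and 22161 CPM in the IkBKO pools. In Mpo cells it was 30777 and 30320 CPM in the WT pools, and 33758 and 29241 CPM in the IkBKO pools, or 1.32 to 1.44 times the Mecom level of the same pool. Pf4 cells were at 1.15 to 1.21 times and Dntt cells at 1.04 to 1.15 times the Mecom level. Each of these 3 gates was above Mecom cells in all 4 pools. When cells in several gates were counted too, Dntt cells were not above Mecom cells in the IkBKO pool of library 1, at 25846 against 25900 CPM, and were 1.02 to 1.09 times the Mecom level in the other 3 pools. The summed mitochondrially encoded RNA of cells in exactly 1 gate was 0.806 to 0.91 times that of Mecom cells in Mpo cells and 0.835 to 0.88 times in Pf4 cells. In Dntt cells it was 0.898 and 0.916 times the Mecom level in the WT pools, and 1.00 and 0.942 times in the IkBKO pools, so it was not lower in the IkBKO pool of library 1.

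Each gate was read against its lineage's marker list, which holds the gating gene. The 9 stem markers, Mecom among them, summed to 588 to 1383 CPM in the Mecom gate and to 75.5 to 219 CPM in the Mpo gate. They summed to 451 to 1179 CPM in the Pf4 gate and 221.5 to 1024 CPM over all LSK cells. The Mecom gate was above both within each pool, with overlapping ranges. The 8 myeloid markers summed to 9388 to 16970 CPM in the Mpo gate, Mpo itself being 2866 to 5123 CPM of it. In the Mecom gate they summed to 491 to 3632 CPM, above its stem markers except in the WT pool of library 2. The 8 lymphoid markers summed to 2715 to 3054 CPM in the Dntt gate and 424 to 771 CPM in the Mecom gate. The 8 megakaryocyte markers summed to 1679 to 4935 CPM in the Pf4 gate and 360 to 548 CPM in the Mecom gate. The gating genes were a large part of the last 2 sums, a part fixed by the gate rule. Dntt itself was at 1129 to 1401 CPM in its gate. Pf4 itself was at 1113 to 3437 CPM in its gate, most of the sum in each pool. Mecom was at 113 to 163 CPM in its gate. In the Mpo gate of the WT pool of library 2, which held only 40 cells, the 8 mature neutrophil markers summed to 9042 CPM, against 298 to 834 CPM in the other Mpo pools. Depth moved with the gates: the median cell held 19454 to 22883 UMIs in the Mpo gate and 7286 to 11086 UMIs in the Mecom gate. G2/M cells were 65.8% to 90% of the Mpo gate and 24.4% to 36.9% of the Mecom gate.

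**Figure D3:**
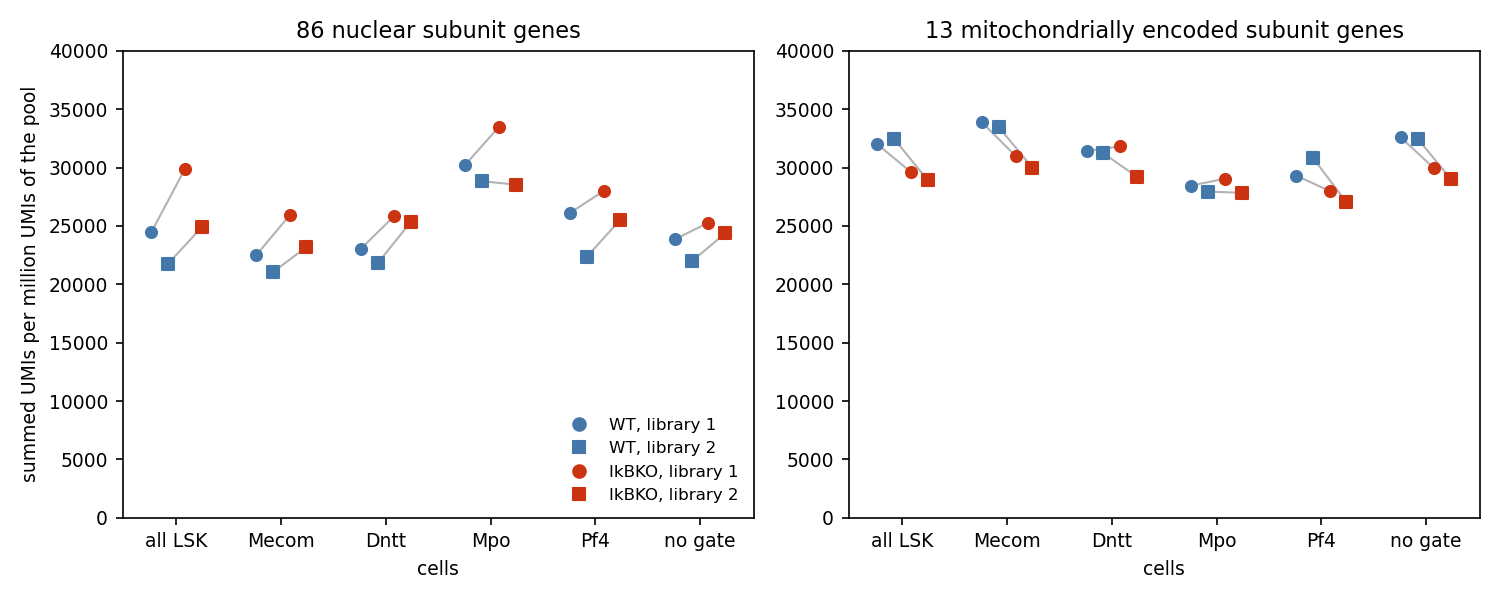
Summed CPM (vertical axis, from 0) of the 86 nuclear subunit genes, left, and the 13 mitochondrially encoded ones, right, over all LSK cells, in the 4 gates (a cell may lie in several) and in cells of no gate. Grey lines join the pools of 1 library. Nuclear levels are highest in the Mpo gate, at 28536 to 33486 CPM, where library 1 goes from 30251 to 33486 CPM and library 2 from 28827 to 28536 CPM.

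Each gate was tested against Mecom cells over 16 pools of cells in exactly 1 gate, with the pool as a block, and fold changes are gate over Mecom. In Mpo cells 86 of 90 members were higher and 1 lower, against 29.4% and 36.2% of all genes. The median was 0.73 over the members and -0.08 over all genes. Higher were 37 of 37 in complex I, 4 of 4 in complex II, 8 of 9 in complex III, 13 of 15 in complex IV, 17 of 17 in complex V and 7 of 8 assembly factors. Without G2/M cells 82 were higher, in cells thinned to 3000 UMIs 80, and in fits leaving out 1 pool 83 to 86. Scaling by total UMIs moved the median of all genes from -0.08 to -0.33 and the share of higher calls among all calls from 44.8% to 25.7%, and 78 members were higher.

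Uqcrq showed the largest rise in Mpo cells after Cox6a2, from 250, 210, 277 and 219 CPM in Mecom cells of the 4 pools (WT of library 1 and 2, then IkBKO of library 1 and 2) to 534, 447, 630 and 426 CPM (1.33 ± 0.08, adjusted p = 1.59e-11). The Mpo values lay above all Mecom values. Atp5g1 rose to 774, 842, 828 and 783 CPM from 392, 407, 389 and 413 CPM (1.25 ± 0.07, adjusted p = 4.82e-11), again with no overlap. Atp5g2, for the same subunit c, rose only from 737, 856, 834 and 979 CPM to 820, 929, 895 and 1076 CPM (0.37 ± 0.04), and its ranges overlapped. At the low end, Sdha was at 99.1 to 110 CPM in Mecom and 96.8 to 113 CPM in Mpo cells (0.22 ± 0.07, adjusted p = 0.00797), a call whose value became -0.03 under total UMI scaling. Uqcrh (0.02), Cox6b2 (-0.02) and Ndufaf1 (0.21) did not pass.

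The 1 member that fell in Mpo cells was Cox7a2l. It was at 342, 409, 345 and 366 CPM in Mecom cells and at 229, 190, 238 and 261 CPM in Mpo cells (-0.39 ± 0.08, adjusted p = 1.1e-04), lower in all 4 pools. It was called lower under each alternative run, at -0.25 to -0.63. Of the surrounding pathway, 23 of 23 import factors, 75 of 78 mitochondrial ribosomal proteins and 16 of 22 genes of the tricarboxylic acid cycle list were higher in Mpo cells, with Cycs at 1.5 ± 0.08 and Fh1 at 1.2 ± 0.09. The rise was not confined to mitochondrial lists: 13 of 20 glycolysis genes were higher and 5 lower, with a median of 0.82. Antioxidant genes gave 13 of 18 higher and 1 lower, and regulators of mitochondrial biogenesis 4 of 19 higher and 4 lower. Of the 13 mitochondrially encoded subunits 6 were higher and 1, mt-Nd6, lower on the TMM scale. Over all tested genes 29.4% were higher and 36.2% lower in Mpo cells.

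In Pf4 cells 70 of 90 members were higher and 2 lower, against 15.2% and 16.7% of all genes, with a median of 0.32. All 17 genes of complex V were higher, 30 of 37 in complex I, 2 of 4 in complex II, 7 of 9 in complex III, 11 of 15 in complex IV and 3 of 8 assembly factors. Atp5g1, at 591, 560, 609 and 612 CPM, led the called members (0.64 ± 0.08), followed by Atp5k, a membrane subunit of the synthase, at 582, 312, 600 and 340 CPM (0.56 ± 0.06). The lower calls were Cox4i2 (-0.96 ± 0.31, adjusted p = 0.0193) and Cox6a2. Neither was called by DESeq2, in thinned cells, without G2/M cells or without the IkBKO pool of library 1. Cox6a2 was at 0.471 to 1.69 CPM in Mecom cells and 0 to 1.01 CPM in Pf4 cells, and it passed the filter on low counts only through the other gates. In a fit of the Mecom and Pf4 gates alone it was not tested, and 1 of 88 members, Cox4i2, was lower, so nothing is read from the Cox6a2 call. With WT pools only, 36 members were higher and 0 lower. Total UMI scaling took the share of higher calls among all calls from 47.6% to 34.6%, with 60 members higher. On the TMM scale, 0 of the 13 mitochondrially encoded subunits were higher and 7 lower in Pf4 cells.

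In Dntt cells 70 of 90 members were higher and 2 lower, against 18.6% and 16.8% of all genes, with a median of 0.25. All 17 genes of complex V were higher, 29 of 37 in complex I, 2 of 4 in complex II, 8 of 9 in complex III, 13 of 15 in complex IV and 1 of 8 assembly factors. This count depends on the scaling more than those of the other gates. Scaled by total UMIs, 21 were higher, the median of all genes moved from 0.01 to -0.15 and the share of higher calls among all calls from 52.6% to 24%. In thinned cells 36 were higher and with WT pools only 14. Under TMM, RLE and total UMI scaling the members' median lay 0.24 above that of all genes. Apart from Cox6a2 and Cox7a1 the largest rise was that of Sdhb, from 95.9, 103, 101 and 116 CPM in Mecom cells to 123, 147, 170 and 183 CPM in Dntt cells (0.73 ± 0.07), with no overlap. Cox5a followed at 0.63 ± 0.08. Among the 13 mitochondrially encoded subunits 2 were higher and 1 lower in Dntt cells on the TMM scale.

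**Figure D4:**
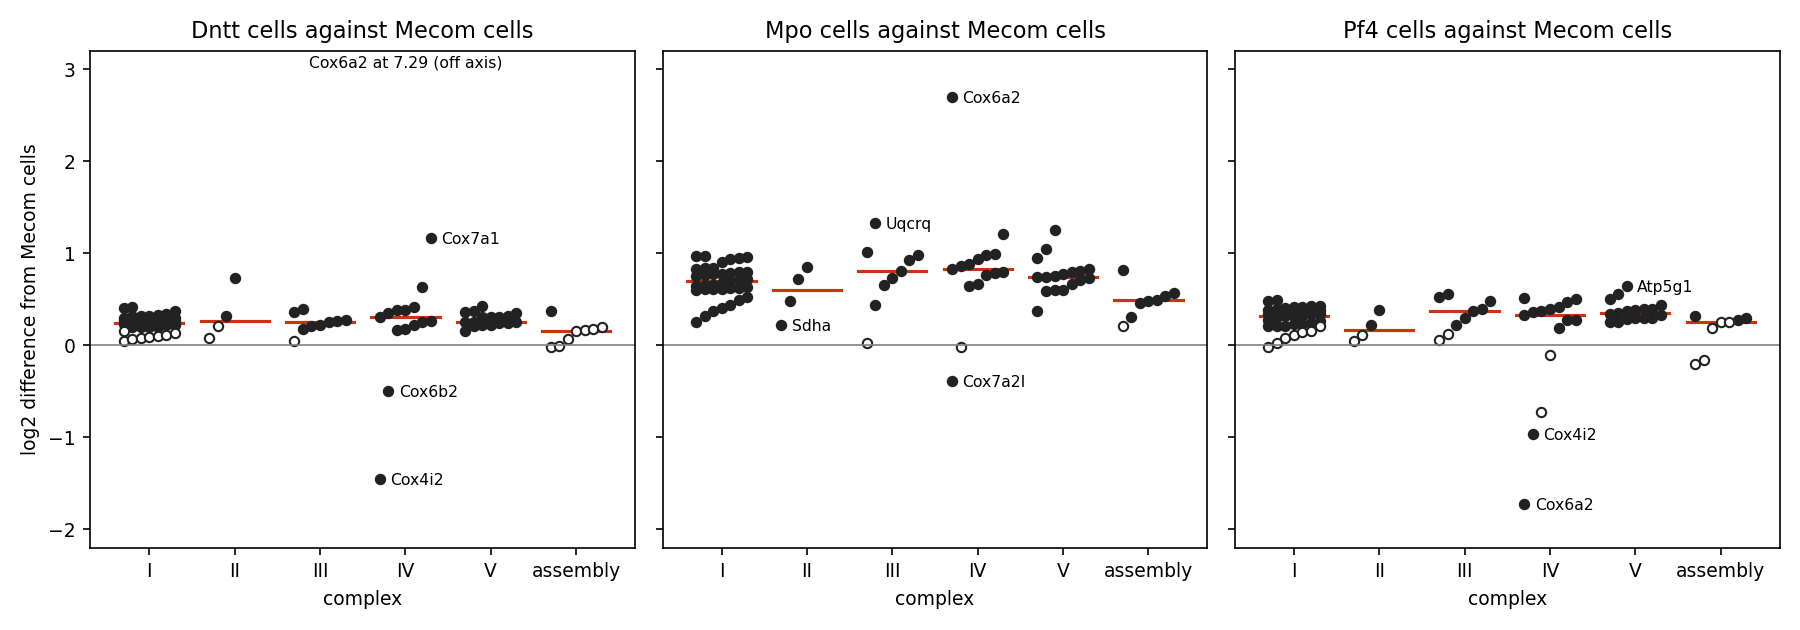
Log2 difference from Mecom cells (vertical axis) of each tested member in Dntt, Mpo and Pf4 cells, by complex. Filled points passed an edgeR adjusted p of 0.05, open points did not, and red lines are group medians. Points shift upward together most in Mpo cells, and complex IV isoforms lie farthest from their group, with Cox6a2 at 7.29 in Dntt cells beyond the axis. Cox6a2 passed the filter on low counts only through gates where it was higher than in Mecom cells.

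In Dntt cells the largest differences from Mecom cells, in either direction, were those of complex IV isoforms. Cox6a2 was high mainly in the Dntt gate. In cells of exactly 1 gate it was at 104, 108, 220 and 210 CPM in Dntt cells and at 1.12, 0.471, 1.07 and 1.69 CPM in Mecom cells (7.29 ± 0.14). In Mpo cells it was at 3.45 to 8.67 CPM (2.70 ± 0.20 over Mecom cells). Cox6a2 passed the filter on low counts only through gates where it was higher than in Mecom cells, so these contrasts are not read as tests. Dntt-gate cells, counting those in several gates, held 75.6% and 88.1% of all Cox6a2 UMIs of the WT pools and 64.8% and 74.3% of those of the IkBKO pools. The share of cells with at least 1 Cox6a2 UMI was 34.5% and 31.2% in WT Dntt cells at medians of 10620 and 8674 UMIs per cell. In WT Pf4 cells, at 11423 and 8626 UMIs, it was 0.885% and 1.53%.

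Cox7a1 was also highest in Dntt cells, at 2.25 to 4.2 CPM, against 0.707 to 3.04 CPM in Mecom cells (1.17 ± 0.31, adjusted p = 0.00491), although the ranges overlapped. It rests on few molecules: counting cells in several gates, the Dntt pools held 14 to 21 of its UMIs and the Mecom pools 15 to 25. Cox4i2 and Cox6b2 were the 2 members lower in Dntt cells. Cox4i2 was at 0.675 to 2.91 CPM there, 3.69 to 12 CPM in Mecom cells and 1.61 to 14.3 CPM in Mpo cells (-1.45 ± 0.26 in Dntt and 0.79 ± 0.19 in Mpo cells). Cox6b2 was at 34.1 to 60.2 CPM in Dntt cells and 54.2 to 91.5 CPM in Mecom cells (-0.50 ± 0.09). Within each pool Dntt cells were below Mecom cells for both genes.

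**Figure D5:**
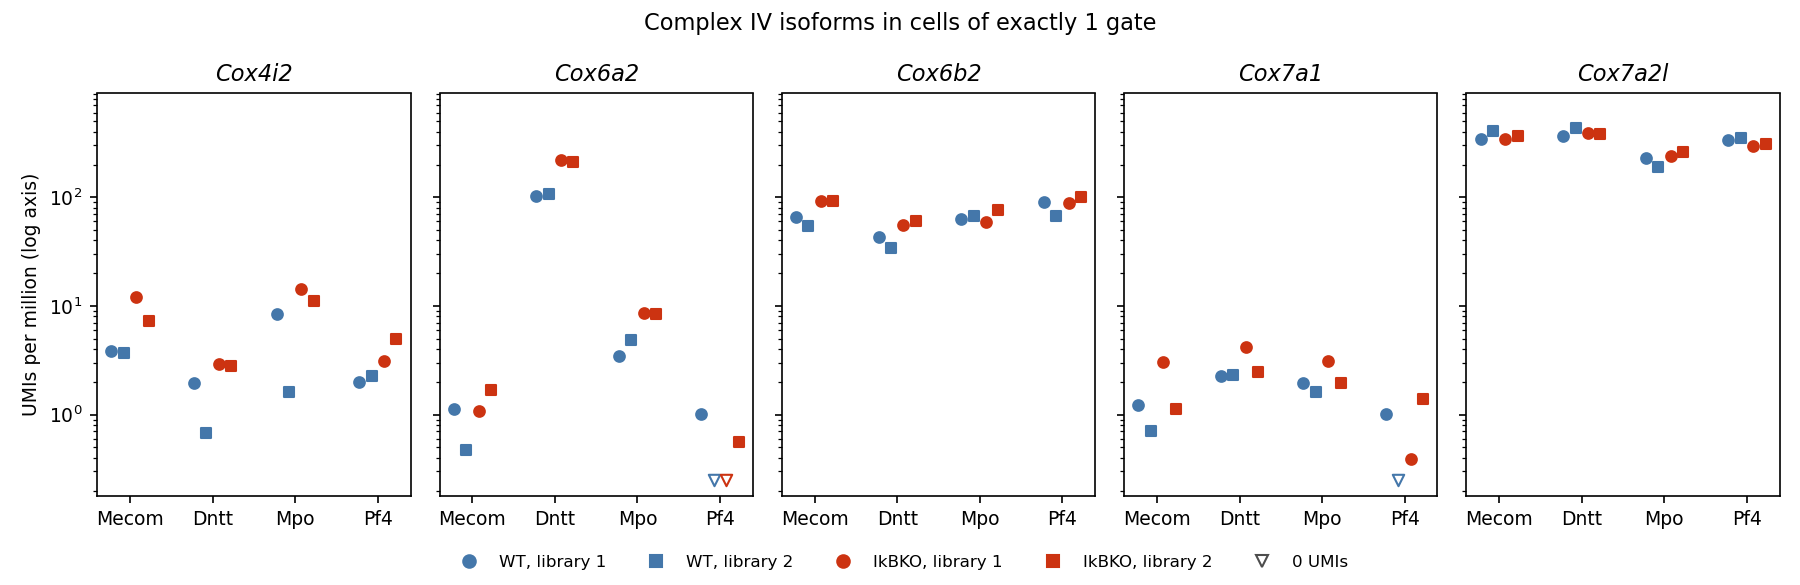
CPM on a log axis of Cox4i2, Cox6a2, Cox6b2, Cox7a1 and Cox7a2l in cells of exactly 1 gate, by genotype and library. Open triangles are pools with 0 UMIs, drawn at the foot of the axis. Cox6a2 lies at 104 to 220 CPM in Dntt and at 0.471 to 1.69 CPM in Mecom cells, and Cox7a2l is lowest in Mpo cells, at 190 to 261 CPM.

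The genotype difference was then taken within each gate. Inside the Mecom and Dntt gates markers of other lineages still differed between genotypes, as given below. Members were higher in IkBKO cells of the Mecom and Dntt gates, and 0 members were lower in any gate. In Mecom cells 45 of 90 were higher (6.2% of all genes higher, 4.37% lower), with a median of 0.22. With 1 pool left out the median ranged from 0.12 without the IkBKO pool of library 1 to 0.36 without that of library 2. The called members were 15 genes of complex I, 1 of complex II, 5 of complex III, 11 of complex IV and 13 of complex V, and 0 assembly factors. Within both libraries 77 of 90 were above WT in CPM (27.9% of all genes). The members called here but not over all LSK cells were Ndufa12, Ndufb7, Ndufb9, Ndufc2, Ndufv2, Atp5c1 and Atp5f1, with log2 fold changes of 0.22 to 0.30.

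Other markers moved with genotype inside this gate. The 8 myeloid markers summed to 1496 and 491 CPM in the WT pools and to 3632 and 1583 CPM in the IkBKO pools. The 8 lymphoid markers went from 688 and 771 to 427 and 424 CPM, and the 9 stem markers from 909 and 1383 to 588 and 949 CPM. The part of these markers in the members' rise was not tested. The Mecom count shrank when cells carrying another gate's gene were removed. Of the Mecom-gate cells, 16.7% and 15.4% in WT and 27.5% and 25.6% in IkBKO pools also lay in another gate. In cells of the Mecom gate alone 7 members were higher and 1, Ndufa4, lower (-0.17, adjusted p = 0.0231), with a median of 0.11: Cox4i2 (1.29), Cox6b2 (0.63), Ndufv1 (0.30), Cox6c (0.21), Cox5b (0.20), Atp5g2 (0.20) and Cox7c (0.16). Without the library block 0 were called, and without 1 pool 0 to 1. In the same gate G2/M cells were 25.8% and 24.4% of WT and 35.8% and 36.9% of IkBKO cells, and without them 22 were called.

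In Dntt cells 48 of 90 were higher (6.81% of all genes higher, 5.95% lower), with a median of 0.27. In the same gate the 6 B cell markers went from 80 and 102 CPM in the WT pools to 163 and 214 CPM in the IkBKO pools, and the 8 myeloid markers from 748 and 475 to 1207 and 1137 CPM. The 9 stem markers went from 343 and 565 to 175 and 233 CPM, and the part of these markers in the members' rise was not tested. The called members were 17 genes of complex I, 3 of complex II, 5 of complex III, 9 of complex IV and 14 of complex V, and 0 assembly factors. Those not called over all LSK cells were Ndufa12, Ndufb7, Ndufb9, Ndufc1, Ndufc2, Ndufs3, Cox6a2, Atp5f1 and Atp5j. Within both libraries 79 were above WT in CPM (23.3% of all genes). The count was 22 under total UMI scaling, which took the share of higher calls among all calls from 53.4% to 35.9%. It was 16 in cells of the Dntt gate alone, 4 with DESeq2 (Cox6a2, Uqcrq, Cox5b and Cox6c), and 1, Cox6a2, without the library block and without each pool in turn.

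Cox6a2 was the 1 member whose rise in Dntt cells passed without the library block and with any pool left out. Its level there was 92.2 and 89.2 CPM in the WT pools, and 193 and 175 CPM in the IkBKO pools (1.1 ± 0.09, adjusted p = 5.01e-21), and it was called under each alternative run in this gate, at 1.00 to 1.18. The share of Dntt cells with a Cox6a2 UMI was 34.5% and 31.2% in WT and 61% and 51.4% in IkBKO cells, and 17.8% and 17.5% against 33.8% and 28.8% after each cell was thinned to 3000 UMIs. Siglech marks plasmacytoid dendritic cells, which are known to express Cox6a2. Of the Dntt cells, 28 of 748 and 26 of 962 held a Siglech UMI in the WT pools. In the IkBKO pools 19 of 264 and 57 of 527 did, a larger share in both libraries. The list of 7 dendritic and monocyte markers that holds Siglech was mixed in this gate. It summed to 301 and 302 CPM in the WT pools and to 340 and 271 CPM in the IkBKO pools. Within both libraries Ly6c2 and Ms4a6c were also above WT, whereas Flt3, Xcr1, Cd209a and Ccr2 were below it. Siglech was low in this gate, ranging from 3.14 to 19 CPM, so 0 UMIs do not show that a cell lacks it. The part of Siglech-expressing cells in the Cox6a2 rise was not tested. In Dntt cells with 0 Siglech UMIs Cox6a2 was at 78 and 83.6 CPM in the WT pools, and at 181 and 147 CPM in the IkBKO pools, again with both IkBKO pools above both WT pools. In those with a Siglech UMI it was at 521 and 381 CPM in the WT pools, and at 362 and 411 CPM in the IkBKO pools, lower than WT in library 1 and with overlapping genotypes. Over all LSK cells the value was -0.02, with the Dntt gate alone at 16.8% and 15.7% of WT and 5.78% and 8.14% of IkBKO cells. In pools re-weighted to one mix of gate classes it was 0.90 (adjusted p = 0.00102). Those pools weight up the 30 cells of the Mpo gate alone in the WT pool of library 2.

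Cox4i2 and Cox6b2, higher over all LSK cells, were called in both gates too. Cox4i2 went from 3.69 and 3.12 to 12.3 and 6.54 CPM in Mecom cells (1.44 ± 0.22, adjusted p = 0.00228) and from 2.03 and 0.912 to 4.02 and 3.13 CPM in Dntt cells (1.42 ± 0.45, adjusted p = 0.022). Cox6b2 went from 64.5 and 53.7 to 88.4 and 88.6 CPM in Mecom cells (0.63 ± 0.08, adjusted p = 8.07e-04) and from 44.5 and 36.2 to 55 and 60.6 CPM in Dntt cells (0.62 ± 0.11, adjusted p = 1.29e-05). In all 4 of these comparisons both IkBKO pools were above both WT pools. Cox4i2 rests on few molecules: the Dntt pools held 9 to 23 of its UMIs. Its call in Dntt cells was lost with DESeq2 (adjusted p = 0.9997), with total UMI scaling (0.0731), without G2/M cells (0.246), in cells of 1 gate (0.18), with the doubled gate (0.273) and in 1 fit over 16 pools (0.197), and its call in Mecom cells in thinned cells (0.084). The Cox6b2 call was lost in Dntt cells with DESeq2 (adjusted p = 0.283) and with the doubled gate (0.0528), and over all LSK cells with total UMI scaling (0.0977). Without the library block neither gene was called in either gate or over all LSK cells, and with 1 pool left out Cox4i2 was called once, in Mecom cells without the IkBKO pool of library 2 (adjusted p = 0.0281).

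In Mpo cells 0 of 90 members were called higher and 0 lower (0.164% and 0.138% of all genes), with a median of 0.09. The median turned to -0.09 without the IkBKO pool of library 1 and was 0.24 without that of library 2. At an unadjusted p under 0.05, 2 were higher, Cox4i2 (1.11 ± 0.32) and Cox6a2 (1.05 ± 0.36), and 0 lower (2.21% and 2.05% of all genes), and DESeq2 called 0. In library 1, 87 of 90 were above WT in CPM, and in library 2, where the WT pool held 40 cells, 36 were. The subunit sum went from 30251 to 33486 CPM in library 1 and from 28827 to 28536 CPM in library 2. The self-test called 6% of genes changed 1.5-fold and 60% of those changed 2-fold in this gate.

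In Pf4 cells 0 of 88 were called higher and 0 lower (0.73% of all genes in each direction), with a median of 0.19. The median ranged from 0.04 without the WT pool of library 2 to 0.33 without that of library 1, and was 0.07 and 0.30 without the IkBKO pools. At an unadjusted p under 0.05, 35 were higher and 0 lower (5.21% and 5.3% of all genes), and DESeq2 called 0. Within both libraries 73 of 88 were above WT in CPM (24% of all genes). The subunit sum went from 26126 to 27981 CPM and from 22357 to 25546 CPM. The self-test called 18% of genes changed 1.5-fold and 58% of those changed 2-fold in this gate. In cells of no gate the sum went from 23851 to 25268 CPM and from 21952 to 24360 CPM.

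Whether the genotype effect differed between gates was tested itself, as the term for gate by genotype over the 16 pools. No member passed. Against Mecom cells, the effect in Dntt cells gave 0 members higher and 0 lower (0.0398% and 0.0159% of all genes), with 4 higher and 0 lower at an unadjusted p under 0.05 (1.85% and 3.34% of all genes): Uqcrq (0.35 ± 0.14, adjusted p = 0.821), Ndufb6 (0.33 ± 0.16), Atp5g1 (0.33 ± 0.13) and Sdhb (0.31 ± 0.14). In a fit of these 2 gates only, Uqcrq was called. For Mpo cells 0 passed (0% of all genes higher and 0.0239% lower, with 2 members higher and 1 lower at an unadjusted p under 0.05, against 1.75% and 1.82% of all genes), and for Pf4 cells 0 (0% of all genes in either direction, and 0 members at an unadjusted p under 0.05, against 1.46% higher and 1.44% lower). DESeq2 called 0 in each. For Mpo cells the self-test called 28% of 2-fold differences in effect, so the counts of 45, 48, 0 and 0 in the 4 gates do not show that the effect differs between them.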

How the data were processed

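Single-cell RNA was read from deposited raw UMI counts per gene and barcode, not normalized, and a deposited table of quality call and genotype. The matrices carry the version Cell Ranger 6.0.0, per the file headers, and the submitters' processing notes name Cell Ranger 7.0, Seurat 4.3.0 and mm10. Counts were summed per library and genotype, over all passing cells or within a gate, and tested with edgeR 4.0.16 in R 4.3.3 (glmQLFit robust, TMM, filterByExpr, two-sided, Benjamini-Hochberg). Library was the block because both genotypes of a number shared 1 library; same-numbered pools' deviations correlated at 0.562 over 14742 genes. With 4 pools, 1 residual degree of freedom remained. Gate contrasts used 16 pools with the pool as block. DESeq2 1.42.0, other scalings, filters, cell subsets and pools left out were alternatives; re-weighting and total UMI scaling of gate contrasts were added after the data were seen. Steps were tested on simulated data, 50 genes per fold size, drawn at random from all tested genes and not from the members. The rule gave no number for Mecom, and at least 1 UMI was used. No doublet caller was run. The members and lists were chosen with earlier results of these data known. Named were the 3 highest and 3 lowest changes per complex, isoform sets, extreme gate calls, gate-specific calls and up to 3 genes per list. Some core subunits of complex I, other subunits described by role, and Siglech with the other dendritic and monocyte markers were named after their values were seen. Coordinates are GRCm38.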

Additional observations from a re-analysis of the deposited data

How the results depend on the processing

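Counts of members called higher depended on the library block and on which cells were pooled; the cause was not tested. Over all LSK cells 43 were higher with the replicate block, against 0 with no replicate block, 7 after re-weighting by gate class, 3 after re-weighting by gate class and G2/M, and 0 to 0 with 1 pool left out. In Mecom cells 45 became 19 with DESeq2, 0 with no replicate block, 10 in thinned cells, 22 without G2/M cells, 7 higher and 1 lower in cells of 1 gate, 24 with the larger gate, 2 in 1 fit over 16 pools, and 0 to 1 with 1 pool left out. In Dntt cells 48 became 4 with DESeq2, 1 with no replicate block, 22 with total UMI scaling, 19 in thinned cells, 29 without G2/M cells, 16 in cells of 1 gate, 21 with the larger gate, 11 in 1 fit over 16 pools, and 1 to 1 with 1 pool left out. In Mpo cells 0 became 1 (Cox6a2) in 1 fit over 16 pools. In Pf4 cells 0 became 1 with total UMI scaling, 5 with no filter, 1 without G2/M cells and 1 with the larger gate.

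For gate contrasts, Dntt against Mecom gave 21 higher with total UMI scaling, 36 higher and 1 lower in thinned cells, and 14 higher in WT pools only. Mpo against Mecom gave 3 lower with total UMI scaling, and Sdha turned to -0.0265. Pf4 against Mecom gave 36 higher in WT pools only. Its 2 lower calls became 0 with DESeq2, in thinned cells, without G2/M cells and in WT pools only, 1 with no filter, with larger gates, with 2 gates only and in IkBKO pools only, and 0 to 1 with 1 pool left out. The IkBKO effect in Dntt against Mecom cells gave 1 higher with 2 gates only.

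Some values over all LSK cells changed sign. Ndufa4 was -0.044 with total UMI scaling, -0.0275 in thinned cells, -0.099 and -0.13 after the re-weightings, and Uqcrh -0.028 with total UMI scaling. Cox7a2l was 0.0056 and 0.023 after the re-weightings. Cox6a2 was 0.15 without G2/M cells, 0.0315 without other-lineage cells, and 0.90 and 0.91, both called, after the re-weightings. Ndufaf4 was -0.075 with total UMI scaling, -0.0775 in thinned cells, -0.069 without G2/M cells, -0.082 without other-lineage cells, and -0.12 and -0.14 after the re-weightings. Ndufaf5 was -0.029 without G2/M cells and -0.069 and -0.048 after the re-weightings, and Ndufaf7 -0.0205 without G2/M cells. With 1 pool left out, values ranged from -0.048 to 0.14 for Ndufa4, -0.083 to 0.40 for Ndufa7, -0.031 to 0.37 for Ndufa6, -0.26 to 0.22 for Cox6a2, -0.22 to 0.73 for Atp5md, -0.016 to 0.56 for Ndufaf8, -0.24 to 0.28 for Ndufaf4, -0.0385 to 0.28 for Ndufaf5, -0.069 to 0.84 for Cox7a1, -0.34 to 1.07 for Atp5k and -0.029 to 0.69 for Ndufc1, and in Dntt cells -0.18 to 0.71 for Atp5k. Of these, Atp5k was called in both comparisons. Fits leaving out 1 pool dropped the block, so they also carry the difference between libraries. Signs were followed only for the highest and lowest changes per complex, isoform sets, extreme gate calls and gate-specific calls. No other gene of these sets changed sign under the alternatives run, where tested over all LSK cells or called in a gate or gate contrast. Signs of the remaining genes named in the text, such as Ndufs1, Atp5b and the genes of the pathway lists, were not followed.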
